A study of Danio rerio with 6 samples.

Results

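The genes described here encode the general RNA-binding regulators of pre-mRNA splicing, in 3 families: the SR genes (*srsf* and *tra2*), the hnRNP genes and the polypyrimidine tract-binding (*ptbp*) genes. They were taken by name, from 41 gene symbols. No measured value served as a filter, but earlier results of these data were known when the symbols were chosen. A gene was found for 40 of the 41 symbols, and 42 genes with reads were counted as members, of the 34965 genes in the deposited table: 19 SR, 19 hnRNP and 4 PTB genes. The exception was *hnrnpa1b*, for which the table of gene names used here gave no gene. Zebrafish carry many of these genes as a pair of copies, marked a and b. For *srsf1*, *hnrnpab*, *hnrnpu*, *ptbp1* and *ptbp2*, the name table gives both copies the same symbol without a letter, and it lists *hnrnpk* for 2 genes. These copies are called major and minor here, by which had the higher FPKM (the number of fragments divided by gene length and library size) in siblings, and which of them is the a or the b copy was not resolved. Only 1 of the 2 *hnrnpu* genes can be the *hnrnpub* of the list, and both are described. Of the 42 genes, 27 were matched by symbol, 10 by a symbol without its letter, 4 as the remaining copy of a pair and 2 through a table of the study, counting a gene listed as *srsf3a* that had no read in any library and is not among the 42.

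The study knocked out *prpf31* in zebrafish of the AB strain by CRISPR/Cas9 and compared dissected heads at 36 hpf (hours post-fertilization). There were 3 libraries from siblings, labelled as wild type, and 3 from *prpf31* knockout embryos (called mutants here), all untreated. Each library held poly(A)-selected RNA of 35 pooled heads of one genotype, so a value is a mean over a pool and over all cell types of the head. In such bulk samples, fewer cells of a type and less RNA per cell cannot be told apart. The mutation is a frameshift in one line, and maternally supplied *prpf31* product may remain in the mutants at this age.

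Prpf31 helps to assemble and stabilize the tri-snRNP of U4, U6 and U5, a core piece of the spliceosome. The genes described here act on another layer, the choice of splice sites. SR proteins carry RNA recognition motifs and a domain rich in arginine and serine, bind enhancer sequences in exons and recruit U1 and U2AF to nearby splice sites. The hnRNP proteins coat nascent transcripts and often act as silencers, and hnRNP A1 is the classic antagonist of SRSF1 in mammals. PTB proteins bind pyrimidine-rich stretches and repress exons. In mammals PTBP1 prevails in progenitors and non-neuronal cells and PTBP2 in young neurons. Many of these genes limit their own level in mammals through exons that lead to decay of the mRNA, and counts per gene do not separate such transcripts.

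The libraries held 58706617 to 65799306 counts in siblings and 65612727 to 66381302 in mutants. Levels below are CPM, counts scaled to the size of the library with TMM factors, and FPKM is used where genes are compared with each other. Mutant 1 stood apart: its TMM factor was 0.816 against 1.02 to 1.06 in the other 5 libraries, its 10 most abundant genes took 14.5% of the counts against 8.14% to 9.54%, and the summed FPKM of 6 skeletal muscle markers was 32460 against 15230 to 18480. Its part in the results below was not tested beyond the values given without it. The targeted gene, *prpf31*, had 38.7, 37.9 and 37.6 CPM in siblings and 22.4, 24.5 and 27.3 CPM in mutants, with a log2 fold change of −0.62 (SE 0.11, edgeR adjusted p = 0.0180). The common biological coefficient of variation was 0.243, so the spread between pools set the precision more than counting did.

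Between mutant and sibling heads, the quasi-likelihood test of edgeR, run without a block, called 2 of the 42 members at an adjusted p of at most 0.05. This number moved with the setting, as given below. As a background, 7.79% of the 24277 genes tested passed, 3.96% as higher and 3.83% as lower, and 3.34% passed with at least a 2-fold change. The minor *srsf1* copy rose in mutants and *hnrnpa0b* fell, the latter being the only member with a fitted change of at least 2-fold. In CPM, the 3 mutant libraries lay wholly on one side of the 3 sibling libraries for 23 of the 42 members, 8 higher and 15 lower, and this was so for 32.3% of all genes tested. Of all genes tested, 3625 lay higher and 4225 lower in this way. An unadjusted p under 0.05 was reached by 16 members, 6 higher and 10 lower, against 5883 of the 24277 genes (2856 higher, 3027 lower). All 42 members passed the filter on low counts.

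**Figure D1:**
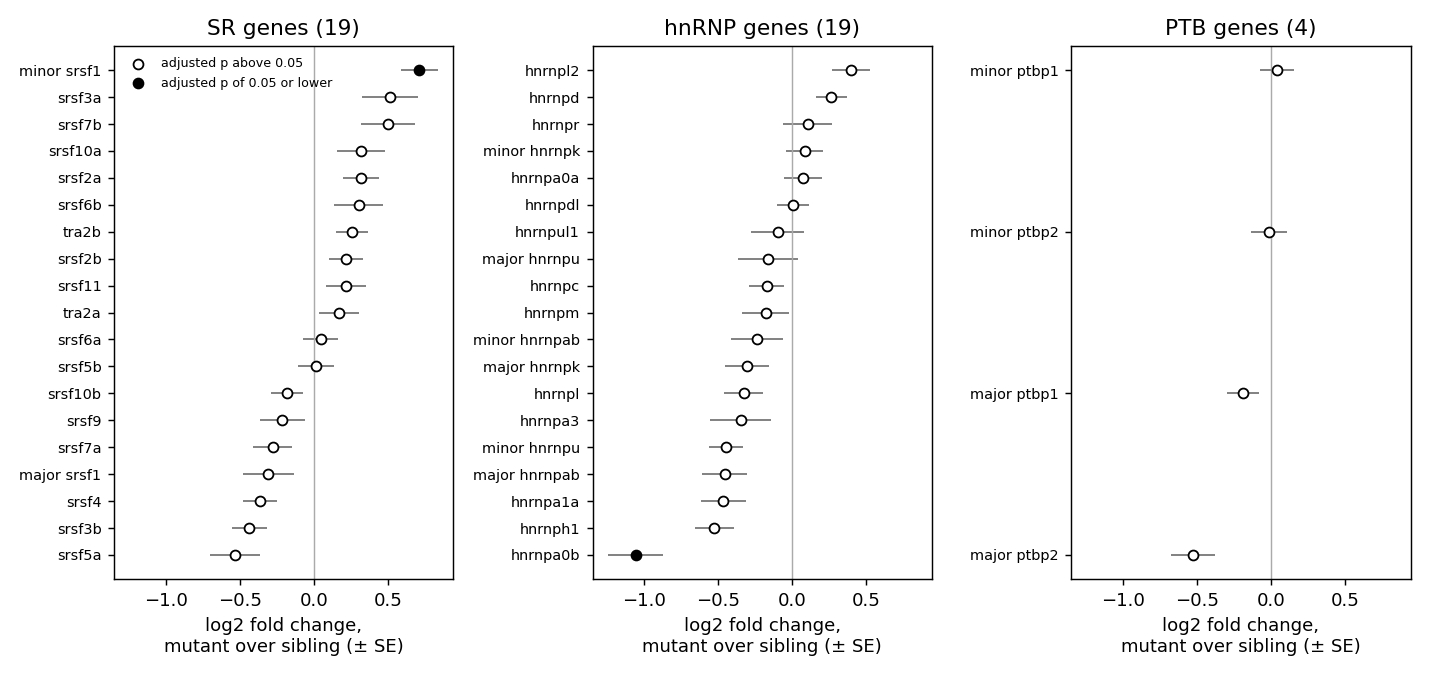
Log2 fold change of each of the 42 members, mutants over siblings, with its standard error (x axis), in the 19 SR, 19 hnRNP and 4 PTB genes. Filled points have an edgeR adjusted p of 0.05 or lower, which holds for the minor *srsf1* copy (0.71) and *hnrnpa0b* (−1.06) alone, and the other points lie between −0.53 and 0.51.

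The number of calls depended on how the libraries were handled. With the replicate number as a block, 6 members passed (1 higher, 5 lower), when 12.7% of all genes did, and the 4 added to the list were *srsf5a* (adjusted p = 0.0326), *hnrnph1* (0.0316), *hnrnpa1a* (0.0498) and the minor *hnrnpu* copy (0.0432), all lower in mutants. Without mutant 1, 15 members passed (7 higher, 8 lower), when 16.4% of all genes did. With DESeq2, 9 members passed (2 higher, 7 lower), when 12.9% of all genes did. Leaving out a library other than mutant 1 left at most 1 member called, when 2.04% (without sibling 1), 1.44% (sibling 2), 1.53% (sibling 3), 3.62% (mutant 2) and 2.21% (mutant 3) of all genes passed. Mutant 1 had the lowest CPM of the mutants in 35 of the 42 members, against 10885 of the 24277 genes tested.

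Among the SR genes, 12 were fitted higher and 7 lower in mutants, with a median log2 fold change of 0.17, beside 0.019 for all genes tested. Of all 24277 genes tested, 12555 were fitted higher and 11722 lower. The mutant and sibling libraries did not overlap in 11 of the 19 SR genes, of which 6 were higher and 5 lower. Over all genes tested this held for 32.3%, with 3625 genes higher and 4225 lower. The minor *srsf1* copy encodes a form of the founding member of the family. It had 87.3, 92.3 and 100.9 CPM in siblings and 134, 158 and 167 CPM in mutants. Every mutant library was above every sibling library, and the log2 fold change was 0.71 (SE 0.13, adjusted p = 0.0177), or 1.64 times the sibling level. This call was lost with library sizes alone (adjusted p = 0.126) and in the limma fits of FPKM (0.132 to 0.186). It was also lost when sibling 1 (0.0848), sibling 2 (0.101), sibling 3 (0.0768), mutant 2 (0.0588) or mutant 3 (0.0726) was left out, and not when mutant 1 was (0.00168). The major *srsf1* copy, which in siblings made up most of the FPKM of the pair, had 291, 351 and 289 CPM in siblings and 202, 305 and 247 CPM in mutants. Mutant 2 lay within the sibling range, and the difference of −0.31 on the log2 scale (SE 0.17, adjusted p = 0.328) did not pass.

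The lowest log2 fold change of the SR genes was that of *srsf5a*, one of the copies of SRSF5, an SR protein that binds exonic enhancers. Its CPM was 508, 402 and 419 in siblings and 372, 277 and 271 in mutants, so the groups did not overlap. The log2 fold change of −0.53 (SE 0.17) had an adjusted p of 0.103 in edgeR, and of 0.0326 with the replicate block, 0.0319 with library sizes alone, 0.0230 to 0.0392 with limma on FPKM and 0.00634 without mutant 1. The other copy, *srsf5b*, had 264, 223 and 215 CPM in siblings and 243, 238 and 229 CPM in mutants. The *srsf5b* groups overlapped, and the log2 fold change was 0.02 (SE 0.12, adjusted p = 0.953).

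The SR protein SRSF3 is the smallest of the family and also takes part in mRNA export. Nearly all the *srsf3* reads came from *srsf3b*, with 269, 241 and 248 CPM in siblings and 174, 204 and 183 CPM in mutants. All 3 mutant libraries were lower, and the log2 fold change was −0.43 (SE 0.12, adjusted p = 0.0675), with an adjusted p of 0.0138 in DESeq2 and 0.0208 without mutant 1. The *srsf3a* copy, the member with the lowest FPKM in siblings, had 2.36, 2.11 and 2.46 CPM in siblings and 2.89, 3.56 and 3.44 CPM in mutants. The *srsf3a* groups did not overlap either, in the other direction, with a log2 fold change of 0.51 (SE 0.19, adjusted p = 0.148). The SR gene with the highest FPKM was *srsf2a*, the gene of the splicing speckle protein SC35. It had 336, 326 and 321 CPM in siblings and 368, 446 and 412 CPM in mutants, which did not overlap (log2 fold change 0.32, SE 0.12, adjusted p = 0.160, or 0.0122 without mutant 1).

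The remaining SR genes had adjusted p values from 0.102 to 0.851 in edgeR. Among them *srsf4* (−0.36), *srsf7a* (−0.28) and *srsf10b* (−0.18) had all mutant libraries below all sibling libraries in CPM, and *tra2b* (0.26), *srsf7b* (0.50) and *srsf10a* (0.32) had them above. The Tra2 proteins bind GAA-rich enhancers, and SRSF10 acts in mammals as a repressor when it loses its phosphates. In *srsf6a*, *srsf6b*, *srsf9*, *srsf11*, *srsf2b* and *tra2a*, the groups overlapped, with log2 fold changes between −0.21 and 0.30. Without mutant 1, when 16.4% of all genes passed, *srsf6b* (0.44, adjusted p = 0.0180), *srsf11* (0.32, 0.0251), *tra2a* (0.27, 0.0482) and *tra2b* (0.31, 0.0413) passed as higher. In that setting *srsf4* passed as lower (−0.31, adjusted p = 0.0296), as it did in DESeq2 (0.046), when 12.9% of all genes passed. The other remaining SR genes did not pass in either setting.

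**Figure D2:**
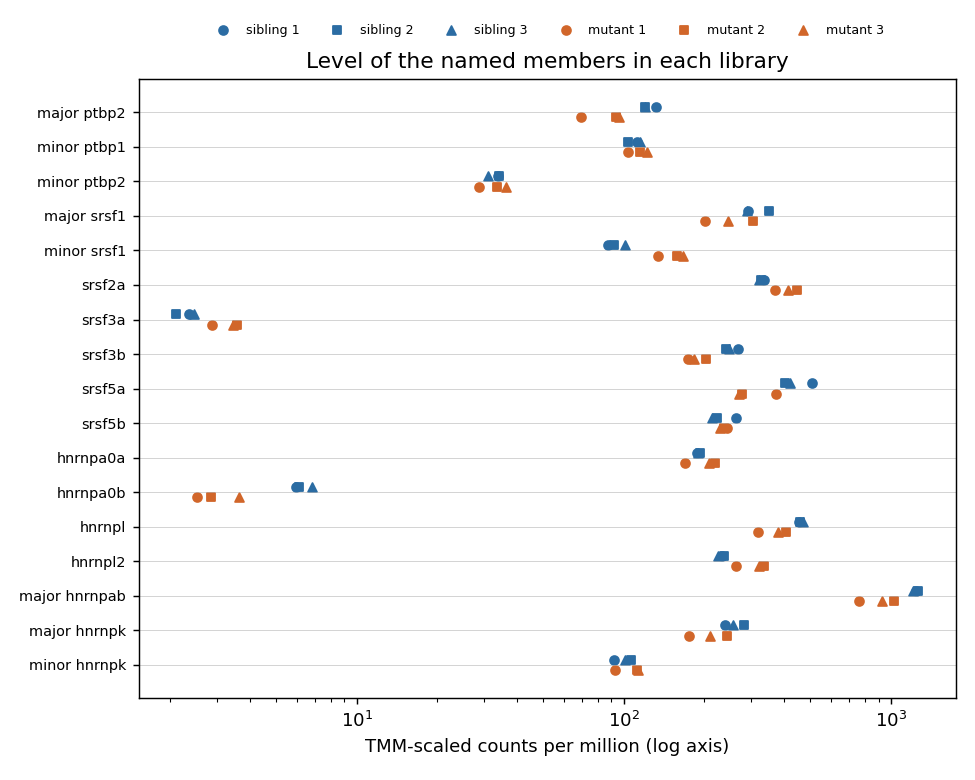
CPM (TMM-scaled, log axis) of the 17 members whose values are given for every library, with siblings in blue and mutants in orange and 1 symbol per replicate number. The minor *srsf1* copy is higher in all 3 mutants (134 to 167 against 87.3 to 100.9 CPM) and *hnrnpa0b* lower (2.53 to 3.64 against 5.93 to 6.80 CPM), while *srsf5b* and the minor *ptbp2* copy overlap.

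Among the hnRNP genes, 6 were fitted higher and 13 lower, with a median log2 fold change of −0.18. Of all genes tested, 12555 were fitted higher and 11722 lower. The groups did not overlap in 10 of the 19, of which 2 were higher and 8 lower, against 32.3% of all genes (3625 higher, 4225 lower). The gene *hnrnpa0b* belongs to the A/B group and encodes, in mammals, a protein that binds AU-rich sequences. It had 5.93, 6.11 and 6.80 CPM in siblings and 2.53, 2.86 and 3.64 CPM in mutants. All mutant libraries were below all sibling libraries, and the log2 fold change was −1.06 (SE 0.19, adjusted p = 0.0170), or 0.480 times the sibling level. The call was lost when sibling 1 (adjusted p = 0.0616), sibling 2 (0.0802), sibling 3 (0.0900) or mutant 2 (0.0594) was left out, and with limma on log2(FPKM + 1) without a filter (0.0719). The other copy, *hnrnpa0a*, was far more abundant, with 189, 193 and 189.5 CPM in siblings and 170.4, 221 and 209 CPM in mutants. Its mutant libraries lay on both sides of the siblings, and the log2 fold change was 0.07 (SE 0.13, adjusted p = 0.775).

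The member with the highest FPKM of all 42 was the major *hnrnpab* copy. Its CPM was 1244, 1269 and 1210.0 in siblings and 759, 1026 and 928 in mutants. The groups did not overlap, and the log2 fold change of −0.46 (SE 0.15) had an adjusted p of 0.112 in edgeR, 0.0342 in DESeq2 and 0.0196 without mutant 1.

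The gene with the highest log2 fold change of the family was *hnrnpl2*, a relative of *hnrnpl*, whose protein binds CA repeats. It had 234, 238 and 226 CPM in siblings and 263, 336 and 320.3 CPM in mutants (log2 fold change 0.40, SE 0.13, adjusted p = 0.110, 0.0469 in DESeq2 and 0.00451 without mutant 1). By contrast, *hnrnpl* had 453, 459 and 469.9 CPM in siblings and 318.5, 404.5 and 377 CPM in mutants (log2 fold change −0.33, SE 0.13, adjusted p = 0.173). Neither gene passed the test alone, and in both the groups did not overlap, with *hnrnpl2* on the higher and *hnrnpl* on the lower side.

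The protein hnRNP K binds C-rich sequences through KH domains. The major *hnrnpk* copy had 240.4, 283 and 257 CPM in siblings and 176, 244 and 211 CPM in mutants (log2 fold change −0.31, SE 0.15, adjusted p = 0.254). The minor copy had 92.3, 107 and 101 CPM in siblings and 93.0, 113 and 113 CPM in mutants (log2 fold change 0.08, SE 0.12, adjusted p = 0.723). The groups overlapped for both copies.

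Of the other hnRNP genes, *hnrnph1*, which binds G runs, was lower in every mutant library (log2 fold change −0.53, SE 0.13, adjusted p = 0.0540). Its adjusted p was 0.0316 with the replicate block, 0.0436 with library sizes alone, 0.0219 in DESeq2 and 0.0110 without mutant 1. Also lower in every mutant library were *hnrnpa1a* (−0.47, adjusted p = 0.110), the minor *hnrnpu* copy (−0.45, adjusted p = 0.0603), *hnrnpa3* (−0.35) and *hnrnpc* (−0.17). The minor *hnrnpu* copy had an adjusted p of 0.0432 with the block, 0.014 in DESeq2 and 0.0135 without mutant 1. For *hnrnpa1a* these values were 0.0498, 0.0617 and 0.0590. The only other gene of the family whose mutants were all higher was *hnrnpd*, which encodes an AU-rich element binding protein (0.26, adjusted p = 0.166). In *hnrnpm*, *hnrnpr*, *hnrnpdl*, *hnrnpul1*, the minor *hnrnpab* and the major *hnrnpu* copies, the groups overlapped, with log2 fold changes between −0.24 and 0.10.

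None of the 4 PTB genes passed in edgeR, where 7.79% of all genes tested did. An unadjusted p under 0.05 was reached by 1 of them, against 5883 of the 24277 genes. DESeq2 called 1 of the 4, when 12.9% of all genes passed. The median log2 fold change of the PTB genes was −0.10, with 1 gene fitted higher and 3 lower. Of all genes tested, 12555 were fitted higher and 11722 lower. The lowest log2 fold change was that of the major *ptbp2* copy, which also had the highest FPKM in siblings, close to that of the major *ptbp1* copy (117 ± 3.33 against 115 ± 7.11 FPKM, SD, n = 3). It had 132, 120.4 and 119.9 CPM in siblings and 69.1, 93.3 and 96.4 CPM in mutants. Every mutant library was below every sibling library, and the log2 fold change of −0.52 (SE 0.15) had an adjusted p of 0.0755 in edgeR, 0.0256 in DESeq2 and 0.0156 without mutant 1. The minor *ptbp2* copy had 34.0, 34.3 and 31.1 CPM in siblings and 28.6, 33.5 and 36.4 CPM in mutants, which overlapped (log2 fold change −0.01, SE 0.12, adjusted p = 0.963). The major *ptbp1* copy was lower in each mutant library, with a log2 fold change of −0.19 (SE 0.11, adjusted p = 0.339). The minor *ptbp1* copy had 113, 104 and 115 CPM in siblings and 104, 115 and 122.6 CPM in mutants (log2 fold change 0.04, SE 0.11, adjusted p = 0.858).

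The size of the family medians, but not their sign, moved with the scaling between libraries. With library sizes alone the median of all genes moved from 0.019 to −0.11, and the family medians were 0.06 (SR), −0.29 (hnRNP) and −0.22 (PTB). In this setting 10, 3 and 0 genes of the families were fitted higher, against 9488 of all 24277 genes. The median of the SR genes was positive, and those of the hnRNP and PTB genes negative, in the main test and in all the alternative settings. In the 3 limma settings on FPKM the SR median was only 0.02, with 10 genes fitted higher and 9 lower. There the median of all genes was −0.09 with log2(FPKM + 1), −0.12 with log2(FPKM + 0.1) and −0.02 without a filter. Without mutant 1 the family medians were 0.27, −0.09 and −0.05, with 11 of 19, 8 of 19 and 2 of 4 genes fitted higher. Of all genes, 12109 of 24821 were fitted higher without it.

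The summed FPKM of a family gives the level of its mRNA as a whole. For the SR genes the sums were 2864, 2962 and 2882 FPKM in siblings and 1999, 3072 and 2838 FPKM in mutants, which overlapped. For the hnRNP genes they were 3159, 3450.0 and 3361 FPKM in siblings and 1864, 3148 and 2957 FPKM in mutants, or 0.799 times the sibling mean. For the PTB genes they were 329, 310 and 317 FPKM in siblings and 189, 272 and 289 FPKM in mutants, or 0.784 times. The hnRNP and PTB sums of the mutants lay below all siblings, with mutant 1 the lowest in each family. An exact 2-sided permutation test of the sums gave p = 0.7 (SR), 0.1 (hnRNP) and 0.1 (PTB). With 3 libraries a group, 0.1 is the smallest p it can give. On FPKM, genes in general were also lower: limma on log2(FPKM + 1) fitted 12969 of 20604 genes lower. Without mutant 1 the ratios were 1.02 (SR), 0.919 (hnRNP) and 0.879 (PTB), and with TMM factors applied to all 6 libraries they were 0.985, 0.863 and 0.848.

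**Figure D3:**
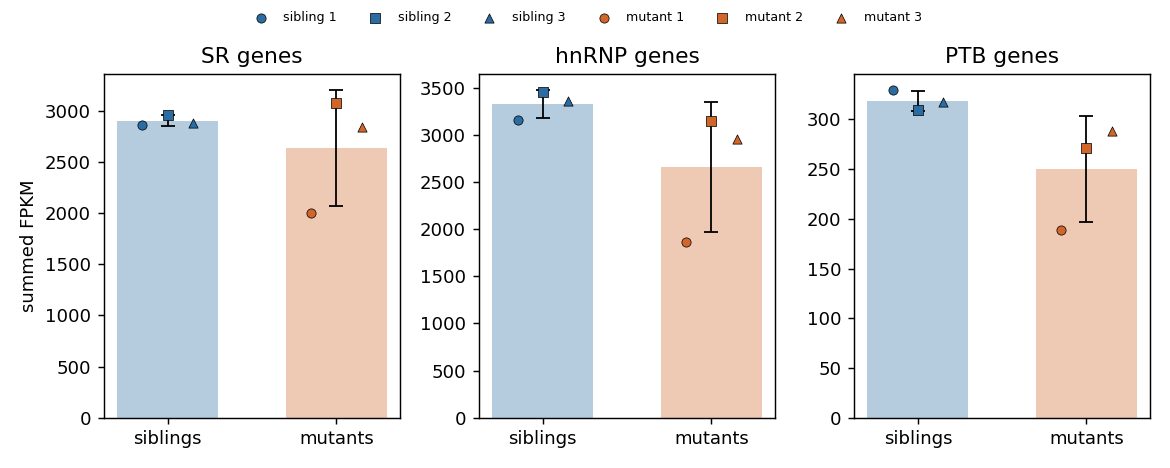
Summed FPKM of the 19 SR, 19 hnRNP and 4 PTB genes in each library (symbols, 1 per replicate number), with the group mean (bar, from 0) and SD (error bar, n = 3). Mutant 1 is the lowest library in each family (1999, 1864 and 189 FPKM), and the 3 mutants are below the 3 siblings in the hnRNP and PTB genes but not in the SR genes.

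Within a family, the share of the summed FPKM needs no scaling between libraries. In the SR family, *srsf2a* took 13.6% ± 0.132 of the sum in siblings and 17.2% ± 0.179 in mutants (SD, n = 3). The shares of the major *srsf1* copy (10.8% ± 1.18 and 8.85% ± 0.929) and *srsf3b* (9.56% ± 0.484 and 7.20% ± 0.207) were lower in mutants. In the hnRNP family, the major *hnrnpab* copy took 26.8% ± 0.596 in siblings and 22.6% ± 0.224 in mutants, and *hnrnpl2* took 6.22% ± 0.162 and 9.50% ± 0.248. In the PTB family, the major *ptbp2* copy took 36.5% ± 0.508 in siblings and 29.8% ± 2.65 in mutants, and the minor *ptbp1* copy took 16.6% ± 0.895 and 20.1% ± 0.353. For each of these genes every mutant share, also that of mutant 1, lay outside the range of the sibling shares. The shares of the groups did not overlap for most members of each family, so this was not particular to the genes named. Such shares were not computed for other gene sets, so there is no background to set them against. A share rises when other members of the family fall, so these values describe the make-up of a family and not the change of a gene.

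The balance of the copies of a pair was tested apart from their levels. The ratio of the 2 copies was taken within each library, so it does not depend on scaling, and was tested with limma over all 2917 pairs of genes in the table that share a symbol apart from a final a or b, with *hnrnpl* and *hnrnpl2* added. Of the 15 pairs among the members, 7 passed an adjusted p of 0.05, where 10.9% of all pairs did. The 7 include *hnrnpl* and *hnrnpl2*, the only pair added by name. No such relatives were added for other genes, so the share of all pairs was not drawn by quite the same rule. In 6 of the 7 the copy with the lower FPKM in siblings gained, and such gains passed in 5.69% of all pairs. The design had named only pairs that carry the letters a and b, and *hnrnpl* with *hnrnpl2*. With these alone, 2 of 5 member pairs passed, where 10.6% of 802 pairs did: the less abundant copy gained in *hnrnpl*/*hnrnpl2* and lost in *hnrnpa0*. Over all 15 pairs, the fitted ratio moved towards the less abundant copy in 12 (80.0%), against 1483 of the 2917 pairs (50.8%), and the libraries of the groups did not overlap in 12 of 15, against 35.4% of all pairs. The median absolute change was 0.50 on the log2 scale in the 15 pairs and 0.34 in all pairs. With the replicate block, 9 of the 15 passed, where 20.6% of all pairs did, and without mutant 1, 10 passed, where 18.4% did. Without sibling 1, 2 or 3, 2 of the 15 passed each time, where 3.15%, 2.37% and 3.02% of all pairs did. Without mutant 2, 5 passed, where 7.13% of all pairs did, and without mutant 3, 3 passed, where 5.62% did. Reads that match both copies of a pair could be assigned to either, and how the authors' counting treated them is not stated.

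**Figure D4:**
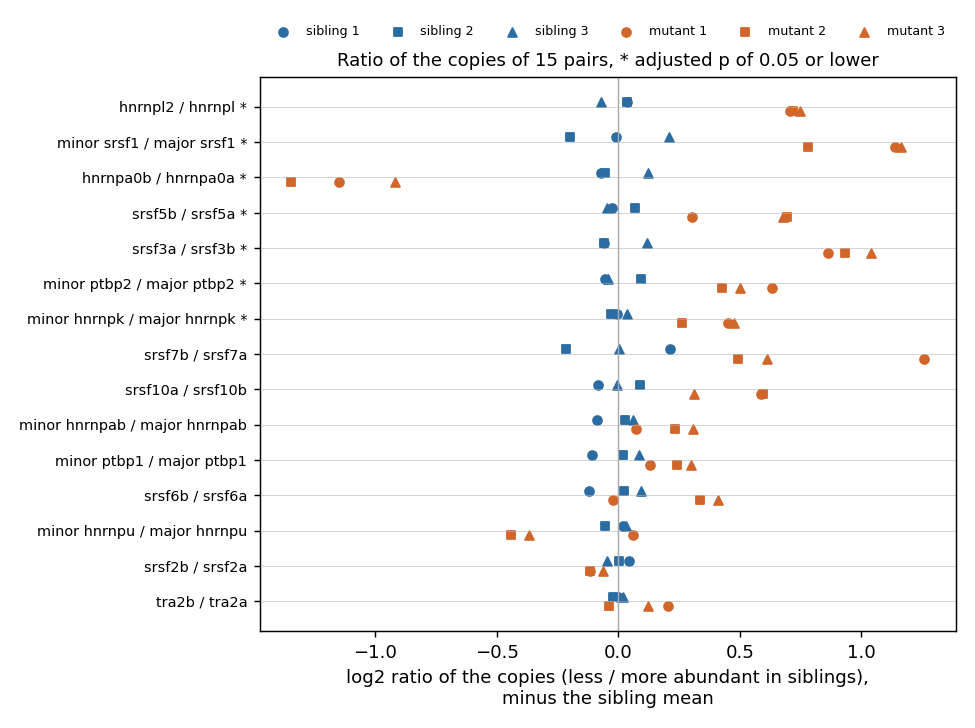
Log2 ratio of the FPKM of the 2 copies of each of the 15 pairs, less abundant over more abundant copy, minus the mean of the 3 siblings (x axis), in each library. In the 7 pairs with an asterisk (limma adjusted p of 0.05 or lower over 2917 pairs) the mutants (orange) lie outside the range of the siblings (blue), to the left only for *hnrnpa0b* over *hnrnpa0a*.

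The pair with the smallest adjusted p was *hnrnpl* and *hnrnpl2*. The share of *hnrnpl2* in the FPKM of the pair was 31.6%, 31.6% and 30.1% in siblings and 42.4%, 42.6% and 43.2% in mutants. The 3 mutants were within 1 percentage point of each other, mutant 1 included, and well above the siblings. The log2 ratio of *hnrnpl2* to *hnrnpl* rose by 0.72 (SE 0.066, limma adjusted p = 0.000881), or 1.65-fold, and the adjusted p was at most 0.00944 with any library left out. The summed FPKM of the pair was 664 ± 22.5 in siblings and 588 ± 140 in mutants (SD, n = 3).

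The minor *srsf1* copy made up 7.13%, 6.31% and 8.21% of the FPKM of its pair in siblings and 14.6%, 11.7% and 14.8% in mutants. The groups did not overlap, and the log2 ratio to the major copy rose by 1.03 (SE 0.14, adjusted p = 0.00498), or 2.04-fold. The adjusted p was at most 0.0333 with any library left out. The FPKM of the pair was 340 ± 40.6 in siblings and 273 ± 79.4 in mutants, so the rise of the minor copy went with no higher sum.

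In the *srsf5* pair the order of the copies was turned in FPKM, while in CPM, which is not divided by gene length, *srsf5a* was higher in every library. The share of *srsf5b* was 47.4%, 49.0% and 47.1% in siblings and 53.1%, 59.8% and 59.5% in mutants, so that it was the less abundant copy in all siblings and the more abundant in all mutants. The log2 ratio to *srsf5a* rose by 0.56 (SE 0.11, adjusted p = 0.0194). In the *srsf3* pair, *srsf3a* took 0.849%, 0.847% and 0.956% in siblings and 1.59%, 1.67% and 1.80% in mutants (log2 ratio higher by 0.94, SE 0.20, adjusted p = 0.0238). The *srsf3a* copy remained a small part of the pair in every library.

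The minor *ptbp2* copy took 22.3%, 24.1% and 22.4% of its pair in siblings and 31.6%, 28.6% and 29.6% in mutants, with a log2 ratio higher by 0.52 (SE 0.11, adjusted p = 0.0264). The CPM of that copy overlapped between the groups, as given above, and the major copy had the lower CPM in mutants. The minor *hnrnpk* copy took 21.9%, 21.7% and 22.4% in siblings and 27.9%, 25.3% and 28.2% in mutants (log2 ratio higher by 0.40, SE 0.091, adjusted p = 0.0308). In both pairs the groups did not overlap.

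The *hnrnpa0* pair moved the other way. The share of *hnrnpa0b* was 4.75%, 4.80% and 5.40% in siblings and 2.31%, 2.02% and 2.69% in mutants. The less abundant copy thus lost share in every mutant library, and the log2 ratio fell by 1.13 (SE 0.19, adjusted p = 0.0111). The calls of these last 5 pairs were lost without any 1 of the siblings, with adjusted p values from 0.0502 to 0.0638 for *hnrnpa0*, 0.0694 to 0.0840 for *srsf5*, 0.0840 to 0.101 for *srsf3*, 0.0805 to 0.117 for *ptbp2* and 0.101 to 0.117 for *hnrnpk*. Without mutant 3 they were lost for *srsf5* (0.0621), *srsf3* (0.0741), *ptbp2* (0.0727) and *hnrnpk* (0.0937), and without mutant 2 for *srsf5* (0.0559) and *srsf3* (0.0578).

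The other 8 pairs did not pass. The changes of the log2 ratio, less over more abundant copy, were 0.79 for *srsf7* (adjusted p = 0.0663, or 0.0170 with the replicate block), 0.50 for *srsf10* (0.103), 0.21 for *hnrnpab* (0.117, or 0.0249 with the block and 0.0241 without mutant 1), 0.22 for *ptbp1* (0.150), 0.24 for *srsf6* (0.236, or 0.0161 without mutant 1) and 0.10 for *tra2* (0.575), and −0.25 for *hnrnpu* (0.261, or 0.00902 without mutant 1) and −0.10 for *srsf2* (0.494).

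Other splicing regulators were taken from 3 lists for comparison, and 7.79% of all genes tested passed in edgeR. Of 9 further hnRNP and KH-domain genes, none passed in edgeR or in DESeq2, 1 reached an unadjusted p under 0.05 (lower), and the median log2 fold change was −0.03. Of 34 tissue-restricted regulators (such as the *rbfox*, *mbnl*, *celf*, *nova* and *elavl* genes), 1 rose and 4 fell, with a median of −0.21. A *qki* gene (ENSDARG00000002026), whose protein binds the ACUAA-type Quaking element, had 14.3, 16.9 and 14.2 CPM in siblings and 6.50, 8.16 and 7.46 CPM in mutants (log2 fold change −1.04, SE 0.14, adjusted p = 0.00804). A *celf3* gene (ENSDARG00000006983), of the neuronal CELF proteins, fell by 0.77 on the log2 scale (SE 0.15, adjusted p = 0.0257), and *mbnl3*, a muscleblind gene, rose by 0.50 (SE 0.11, adjusted p = 0.0340).

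Of 27 SR-related and other regulators, 2 rose and 4 fell, with a median of 0.02. The highest log2 fold change among them was that of *srrm2*, which encodes a large scaffold protein of nuclear speckles, with 107, 92.8 and 87.4 CPM in siblings and 229, 267.5 and 258 CPM in mutants (log2 fold change 1.39, SE 0.13, adjusted p = 0.00147). All 3 mutant libraries of *srrm2* were at least 2-fold above the highest sibling. In contrast, *sfpq*, a paraspeckle protein gene, had 369.9, 352 and 337 CPM in siblings and 186, 203 and 189.8 CPM in mutants (log2 fold change −0.87, SE 0.11, adjusted p = 0.00596), and *fubp1*, of a KH-domain protein, fell by 0.67 on the log2 scale (SE 0.12, adjusted p = 0.0170). Without mutant 1, when 16.4% of all genes passed, the calls were 2 higher and 9 lower in the tissue-restricted list. In the SR-related list they were 9 higher and 6 lower. In CPM, the groups did not overlap in 1 of the 9 hnRNP and KH-domain genes (lower). They did not overlap in 21 of the 34 tissue-restricted genes (3 higher, 18 lower). The same held for 15 of the 27 SR-related genes (6 higher, 9 lower) and for 32.3% of all genes tested.

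The summed FPKM of the neuron and lens markers was lower in every mutant library. For the progenitor, muscle and head and brain markers, mutant 1 stood apart from the other mutants. In edgeR, 7.79% of all genes tested passed. All 11 neuron marker genes were fitted lower in mutants, 2 of them passing, with a summed FPKM of 997 to 1098 in siblings and 410 (mutant 1), 798 and 746 in mutants. All 8 lens markers were lower (1 passing), with 855 to 1078 FPKM in siblings and 114.5, 654 and 651 in mutants. All 5 erythrocyte markers were also fitted lower (none passing, 1 at an unadjusted p under 0.05, none in DESeq2). The summed FPKM of the erythrocyte markers overlapped between the groups, with 941 to 1725 in siblings and 485, 1359 and 939 in mutants. Of 11 neural progenitor markers 9 were lower (1 passing), with 1078 to 1183 FPKM in siblings and 619, 1188 and 1178 in mutants. All 6 muscle markers were fitted higher (none passing in edgeR or DESeq2, and none at an unadjusted p under 0.05), with a median log2 fold change of 0.43. Without mutant 1 this median was −0.27 and 2 passed as lower, when 16.4% of all genes passed. Of 11 markers of the head and brain regions 5 were higher and 6 lower (none passing in edgeR or DESeq2, 1 at an unadjusted p under 0.05). With the replicate block, when 12.7% of all genes passed, 4 neuron, 3 progenitor, 4 lens, 2 erythrocyte and 1 head and brain markers passed, all lower. Without mutant 1, 4 neuron and 5 lens markers passed, all lower, and no erythrocyte marker passed. In that setting 2 progenitor markers passed as higher and 3 as lower, and 2 head and brain markers as higher and 2 as lower. The summed FPKM of the head and brain markers was 168 to 194 in siblings and 65.5, 213.5 and 197.7 in mutants, and no gene of these lists was at 0 in any library. The part of the cell type make-up in the levels of the splicing regulators was not tested.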

How the data were processed

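Poly(A) RNA of 3 sibling and 3 mutant pools was sequenced. The submitters' processing notes name GRCz11, HISAT2 2.0.4 and HTSeq 0.9.1. The paper's methods give HISAT2 as the aligner and both featureCounts and HTSeq-count for counting. The annotation, the strand setting and the treatment of reads shared by copies are not given in the sources used here. The deposited counts are whole numbers per gene, without normalization. The deposited FPKM were made by the authors from these counts with 1 length per gene: over 20638 genes the largest relative deviation was 2.2e-08. Of 34965 genes, 3898 had no count.

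edgeR 4.0.16 in R 4.3.3 was run on the counts (filterByExpr, TMM, quasi-likelihood test). Adjustment was by Benjamini-Hochberg across the 24277 genes tested, with a threshold of 0.05. For pairs of copies, log2 of the count ratio (0.5 added to each) was tested with limma 3.58.1 (eBayes with trend) over 2917 pairs. The design named pairs with the letters a and b, and *hnrnpl* with *hnrnpl2*, and pairs that share a symbol without letters were added, because the name table drops many letters. A share of a pair is from FPKM. The labels do not say that the pools came from separate crosses, so p values measure the spread between these pools.

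Alternatives were the study's tool (DESeq2 1.42.0), library sizes alone or RLE in place of TMM, a minimum of 10 counts in every library or no filter, the replicate block, each library left out, and limma on log2 of FPKM with 1 or 0.1 added (mean FPKM of at least 0.5) or with 1 added and no filter. For the pairs they were 5 counts added, the ratio of FPKM + 0.1, the block and each library left out. The test over 2917 pairs, used as the main one, went beyond the design. The run on only the pairs that the design named, and the background shares with a library left out, were added after seeing the data. The scripts were checked on simulated counts. These had less spread than the data, larger changes than any member, no library that stood apart and no pairing. The check therefore does not measure how the tests perform on these data.

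Both groups carry the replicate numbers 1 to 3. Over 20211 genes, deviations from the group means correlated at 0.417, 0.396 and 0.526 between libraries of the same number, and at −0.347 to −0.0887 otherwise. Deviations within a group of 3 sum to 0, so positive values at the same number push the others below 0. The replicate block took the numbers to pair the libraries, and the source of the pairing is not stated in the labels. The main tests of genes and of pairs used no block, so their p values ignore this pairing.

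The members and lists were chosen with earlier results of these data known. Values in every library are given for members that passed the test and their other copies, the member with the highest and the lowest log2 fold change and the highest FPKM of each family, and both copies of a pair whose ratio passed. Of each list of other regulators, up to 3 genes with the smallest adjusted p are named. No sequence is shown. Tables and figures were made in Python 3.11.15 (pandas 2.3.3, numpy 2.4.6, matplotlib 3.10.9).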

Additional observations from a re-analysis of the deposited data

How the results depend on the processing

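The counts of calls moved with the setting, and the signs of the family medians and of the 15 pair ratios did not. For the pairs, the block cannot alter the fitted change, and the ratio of FPKM nearly repeats that of counts. The sign of a pair ratio was thus tested mainly by leaving out a library. The number of genes called was 3449 with DESeq2, 3084 with the replicate block, 1136 with limma on log2(FPKM + 1), 1022 with log2(FPKM + 0.1), 919 with library sizes alone and 674 with log2(FPKM + 1) without a filter, and 359 to 4069 with a library left out, against 1890. The calls were 961 higher and 929 lower in edgeR with TMM, 400 and 519 with library sizes alone, and 424 and 712 with log2(FPKM + 1). SR genes called were 3 with DESeq2, 2 with the block and 0 to 9 with a library left out. The hnRNP genes called were 5 with DESeq2, 4 with the block, 2 with library sizes alone and with log2(FPKM + 1) and log2(FPKM + 0.1), 0 with log2(FPKM + 1) without a filter, and 0 to 5 with a library left out. PTB genes called were 1 with DESeq2 and 0 to 1 with a library left out. The PTB median was −0.22 with library sizes alone and −0.23, −0.24 and −0.23 in the 3 settings on FPKM.

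Pairs called were 2 of 5 when only pairs with the letters a and b, and *hnrnpl* with *hnrnpl2*, were tested, and 2 to 10 of 15 with a library left out. With library sizes alone and on FPKM, the log2 fold change turned negative for *hnrnpa0a* (−0.0397 with library sizes alone, −0.0711 with log2(FPKM + 1), with or without a filter, and −0.0723 with log2(FPKM + 0.1)), the minor *hnrnpk* copy (−0.0312, −0.0532 and −0.0546 in the same order), *srsf5b* (−0.112, −0.114 and −0.115) and the minor *ptbp1* copy (−0.0759, −0.0943 and −0.0963). With a library left out it lay between −0.00478 and 0.166 for *hnrnpa0a*, −0.0451 and 0.117 for *srsf5b*, −0.015 and 0.0944 for the minor *ptbp1* copy, and −0.0916 and 0.0686 for the minor *ptbp2* copy. None of these 5 genes passed in any setting. The cause was not tested. Beside the 4 members and the *srsf7* and *hnrnpab* ratios that gained a call, the replicate block changed no call of a member or of a pair. With 3 pools a group, the SE of a member's log2 fold change was between 0.10 and 0.21, and no member with an absolute change under 0.71 passed in edgeR with TMM.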

Other observations

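The name table lists no *hnrnpa1b*, and it gives a further gene the name HNRNPA1L2 (ENSDARG00000036675). It was not counted as a member. Its level was 274, 328 and 302 CPM in siblings and 172, 245 and 209 CPM in mutants. All 3 mutants lay below all 3 siblings, and the log2 fold change was −0.53 (SE 0.16, edgeR adjusted p = 0.0855).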
